A study of Mus musculus with 9 samples.

Results

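The 32 genes described here are a module of hypoxia genes: the subunits of the hypoxia-inducible factors (HIF), the enzymes that sense oxygen for them, and genes that HIF is known to switch on. They were chosen by symbol from the deposited table of 32761 genes, each symbol matched 1 row, and all 32 were found. Of these, 30 passed the filter of a mean of at least 0.5 FPKM (fragments relative to transcript length and library size) over the 9 libraries, and Car12 and Stc2 did not. The tumours came from mice carrying Hepa1-6-luc, a luciferase-marked line of the mouse hepatoma Hepa1-6, in the liver, and were taken on day 14. Of 6 treatment groups 3 were sequenced, with 3 tumours each, and the labels do not name an agent for the Control. The Lenvatinib+anti-PD1 group received free lenvatinib, an inhibitor of the VEGF and FGF receptor kinases, and an antibody against PD1, an inhibitory receptor of T cells. The Co+Len@OVA+anti-PD1 group received a drug-loaded nanocluster (2 mg/mL) with the same antibody, and the labels do not spell out Co. Mice of these groups were injected with 50 µg of antibody at intervals of 4 days, and with drug or nanocluster, through the tail vein, at intervals of 3 days. No sequenced group received the antibody or the drug alone, so their parts cannot be told apart. Below, the treated groups are called the free lenvatinib group and the nanocluster group.

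HIF is a pair of proteins, an alpha subunit that oxygen controls and the stable partner ARNT. When oxygen is present, prolyl hydroxylases of the EGLN family mark the alpha subunit, the VHL protein binds the mark, and the alpha subunit is degraded. When oxygen is low the alpha subunit escapes, pairs with ARNT and binds short DNA elements at genes for glucose use, pH control, mitophagy, collagen modification and vessel growth. Solid tumours often hold poorly perfused regions in which these genes are active. Because the control acts mainly on the protein, the mRNA of an alpha subunit does not measure HIF activity.

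The core of the DNA element bound by HIF reads ACGTG or GCGTG. RefSeq promoters (GRCm38.p6, 250 bases before to 50 after the start) were matched for 24 of the 32 genes by gene ID. ACGTG was found on either strand in 14 of the 24 genes (58.3%), and in 21.8% of 27025 genes with a promoter. GCGTG was found on either strand in 17 of the 24 (70.8%) and in 35.2% of all. CACGT and CACGC are the same letters read on the other strand, and where CACGTG stands 2 matches overlap. The shares were not adjusted for base composition, and a match is not evidence of binding. The following upstream stretches are shown because the first 4 belong to genes that were lower in both treated groups and the last 4 to genes that were higher in the nanocluster group than in the free lenvatinib group. Capitals mark the matches, and each stretch ends before the start.
Car9: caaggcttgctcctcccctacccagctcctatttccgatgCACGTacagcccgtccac
Bnip3: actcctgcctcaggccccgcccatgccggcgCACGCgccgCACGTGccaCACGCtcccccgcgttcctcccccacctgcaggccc
Egln3: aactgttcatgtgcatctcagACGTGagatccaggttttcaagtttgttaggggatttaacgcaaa
Ddit4: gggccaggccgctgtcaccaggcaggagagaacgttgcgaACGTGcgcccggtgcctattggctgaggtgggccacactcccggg
Hif1a: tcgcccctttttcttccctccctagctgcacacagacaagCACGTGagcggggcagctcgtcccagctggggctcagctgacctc
P4ha1: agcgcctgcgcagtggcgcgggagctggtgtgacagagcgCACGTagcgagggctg
P4ha2: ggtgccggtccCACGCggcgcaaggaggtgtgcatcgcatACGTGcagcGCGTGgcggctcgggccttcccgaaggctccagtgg
Slc16a3: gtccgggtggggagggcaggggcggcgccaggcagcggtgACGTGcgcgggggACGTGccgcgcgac
The stretches lie at chr4:43506968-43507025 (plus strand) for Car9, chr7:138909570-138909654 (minus strand) for Bnip3, chr12:54204059-54204124 (minus strand) for Egln3 and chr10:59951913-59951997 (minus strand) for Ddit4. Those of the other set lie at chr12:73907692-73907776 (plus strand) for Hif1a, chr10:59323240-59323295 (plus strand) for P4ha1, chr11:54100806-54100890 (plus strand) for P4ha2 and chr11:120949000-120949066 (plus strand) for Slc16a3. The stretches were picked from promoters that hold ACGTG, so their having a match is no result. No match to either core was found in this window of Vhl or Car12.

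Column totals ranged from 3.32e+05 to 3.73e+05 FPKM and 23575 to 26298 genes were above 0 in a library. In each group the third library lay between the other 2 for 81.0% to 88.4% of the genes that spanned over 2-fold, against 4.97% to 10.3% for the first or second library. Among the 30 genes tested here it was in the middle for 25 in Control, 17 with free lenvatinib and 24 with the nanocluster. If the third libraries are not independent tumours, the p-values from 9 libraries are too small, so each comparison also has its counts from the first 2 libraries. The first Control library differed from the rest of its group, with a summed FPKM of 311 for 10 macrophage markers against 1365 and 1030.4. Hepatoma and liver identity genes (Afp, Alb, Ttr, Apoa1, Krt8 and Krt18) summed to 3262 to 6096 FPKM in Control, 3772 to 4064 with free lenvatinib and 1684 to 2136 with the nanocluster, and none was at 0 in a group. Against Control, the median log2 change of all genes was 0.13 in the nanocluster group, and median-of-ratios scaling brought it to 0.00064. That scaling turned the share of called genes that were higher from 62.3% to 42.2% in that comparison, from 58.3% to 49.8% for free lenvatinib, and from 59.0% to 46.2% between the treatments.

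With free lenvatinib, hypoxia genes were broadly lower than in Control. The libraries are bulk tumour RNA, in which fewer cells of a type and less RNA per cell cannot be told apart. Of the 30 genes tested 22 fell and 0 rose in limma, with 22 lower and 0 higher at an unadjusted p under 0.05, where 9.87% of all 15353 genes tested fell and 13.8% rose (23.7% in all). Their median log2 change was -0.56, against 0.05 over all genes tested. By ratio of means the falls ran from Adm and Lox, at 0.207 and 0.249 of the Control level, to Mxi1 at 0.798 of it. The genes that did not pass were Egln1, Slc16a3, Pfkfb4, Pdk1, Fam162a, Ankrd37, Plod2 and Angptl4. In libraries 1 and 2 alone 1 gene fell at an adjusted p under 0.05, Adm (adjusted p = 0.0377), where 0.130% of all genes fell and 0.215% rose. At an unadjusted p under 0.05, 20 were lower and 0 higher there, and all 30 estimates were negative. Mitochondrial genes took 16.3, 17.9 and 16.7% of the summed FPKM with free lenvatinib, above the 13.2, 11.1 and 11.9% in Control and the 12.3, 12.8 and 12.7% with the nanocluster. After rescaling without these genes 21 hypoxia genes fell and 0 rose with free lenvatinib.

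With the nanocluster hypoxia genes were again more often lower than higher. Of the 30 genes 16 fell and 3 rose against Control, where 12.7% of all genes tested fell and 20.9% rose (33.6% in all), and the median was -0.39 against 0.13 over all genes. The share that rose was below that of all genes. Ddit4, Hif3a, Ndrg1, Car9 and Bnip3 led the falls, and Angptl4, Hif1a and P4ha1 were the genes that rose. The rises of Hif1a and P4ha1 were small and did not pass after median-of-ratios scaling (log2 0.18, adjusted p = 0.0963, and 0.14, adjusted p = 0.069), which left 1 gene risen. Leaving out nanocluster replicate 3 also left 1. In libraries 1 and 2 alone Car9 fell (adjusted p = 0.0419) and 0 rose in limma, where 0.410% of all genes fell and 0.111% rose, with 12 lower and 1 higher at an unadjusted p under 0.05. The comparisons of each treatment with Control share the Control libraries, so their values are set side by side without a measure of likeness.

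Between the treatments, 11 of the 30 genes were higher and 3 lower in the nanocluster group, where 17.3% of all genes tested were higher and 12.0% lower (29.4% in all). Their median difference was 0.18 on the log2 scale, against 0.07 over all genes. The higher genes were Lox, Plod2, Pfkfb3, Angptl4, Slc16a3, Adm, P4ha2, Hif1a, P4ha1, Ccng2 and Bnip3l, and the lower ones Hif3a, Car9 and Egln1. In libraries 1 and 2 alone 0 passed in limma, where 0.443% of all genes were higher and 1.93% lower, with 8 higher and 3 lower at an unadjusted p under 0.05. The heat map sets the libraries beside each other.

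**Figure D1:**
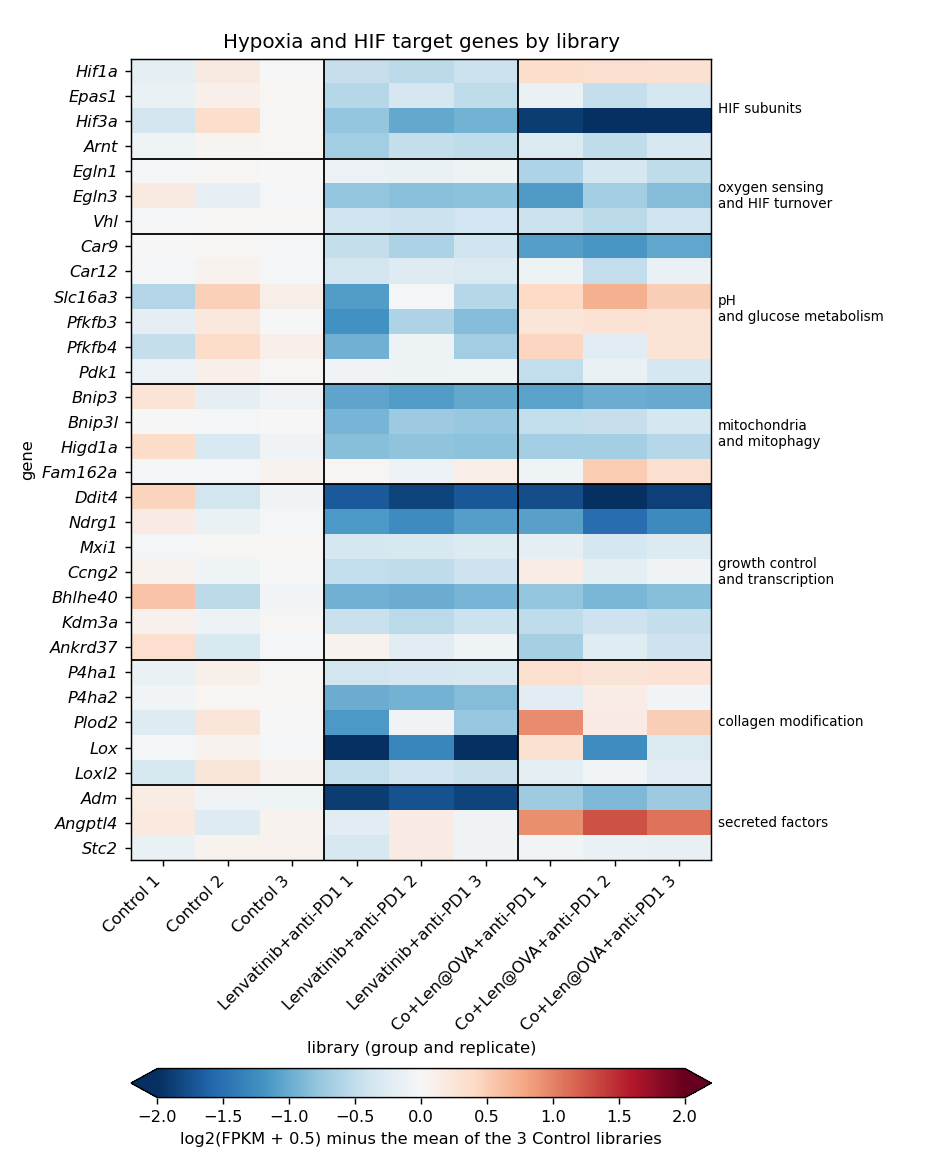
Colour shows log2(FPKM + 0.5) of each of the 32 genes (rows, by role) in each of the 9 libraries (columns), minus the mean of the 3 Control libraries. Ddit4, Ndrg1 and Bnip3 are blue in all 6 treated libraries, whereas Adm and Lox are darkest with free lenvatinib, and Angptl4 is red in the nanocluster libraries, where the means of Hif1a, P4ha1 and Angptl4 were 1.25, 1.23 and 2.23 of the Control means.

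The HIF subunits did not move as a set. All 4 fell with free lenvatinib, while with the nanocluster Hif3a and Arnt fell, Hif1a rose and Epas1 did not pass. Hif1a, which encodes the alpha subunit of HIF-1, was at 23.2, 30.3 and 26.7 FPKM in the Control libraries 1, 2 and 3, at 19.1, 18.3 and 19.7 with free lenvatinib and at 34.2, 33.2 and 33.1 with the nanocluster. The 3 groups did not overlap, with free lenvatinib lowest and the nanocluster highest. The difference between the treatments (log2 fold change 0.80 ± 0.09 SE, adjusted p = 0.000548) was larger than the fall against Control with free lenvatinib (log2 fold change -0.47 ± 0.09 SE, adjusted p = 0.00812) or the rise with the nanocluster (log2 fold change 0.33 ± 0.09 SE, adjusted p = 0.0266). That rise did not pass without nanocluster replicate 1, 2 or 3 or Control replicate 3 (adjusted p = 0.0686, 0.054, 0.0737 and 0.0681), nor with upper quartile scaling (0.0512). It also did not pass in a fit of the nanocluster and Control groups alone (adjusted p = 0.0706) or with no filter on low values (0.0533).

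Hif3a encodes an alpha subunit of which several forms restrain HIF-1 and HIF-2. It was at 4.54, 7.79 and 6.08 FPKM in Control, at 3.29, 2.7 and 2.86 with free lenvatinib and at 1.24, 0.855 and 1.07 with the nanocluster. The groups stepped down without overlap, in the opposite order to Hif1a for the treated groups. Hif3a fell in the free lenvatinib group (log2 fold change -0.92 ± 0.18 SE, adjusted p = 0.00987) and further in the nanocluster group (log2 fold change -2.07 ± 0.18 SE, adjusted p = 0.000276), and the treatments differed (log2 fold change -1.16 ± 0.18 SE, adjusted p = 0.00294). Epas1, the alpha subunit of HIF-2 and a gene well expressed in vessel lining, was at 24.7, 29.4 and 28 FPKM in Control and 18.2, 21.5 and 19 with free lenvatinib (log2 fold change -0.47 ± 0.11 SE, adjusted p = 0.0171). In the nanocluster group it was at 24.8, 19.4 and 21.4 FPKM, and library 1 of that group overlapped Control (-0.32, adjusted p = 0.0527). The fall with free lenvatinib did not pass without replicate 1 or 3 of that group or Control replicate 3 (adjusted p = 0.0576, 0.0649 and 0.061). Without nanocluster replicate 1 or Control replicate 1 Epas1 also fell in the nanocluster group (0.0263 and 0.035), as it did with median-of-ratios (0.00645) and upper quartile scaling (0.0168). Arnt, the shared partner, was at 7.93 ± 0.411 FPKM in Control, 5.22 ± 0.439 with free lenvatinib and 6.02 ± 0.522 with the nanocluster (SD, n = 3). It fell in both groups (-0.56, adjusted p = 0.00393, and -0.37, adjusted p = 0.0159), the latter not without Control replicate 3 (adjusted p = 0.0548).

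Among the genes of oxygen sensing, Egln3 and Vhl fell in both treated groups and Egln1 in the nanocluster group. Egln3, an oxygen-sensing prolyl hydroxylase that is itself induced by HIF, was at 124, 97.4 and 108 FPKM in Control, 64, 61.3 and 62 with free lenvatinib and 49.5, 67.4 and 59.6 with the nanocluster. Every treated library was below every Control library (-0.80, adjusted p = 0.00338, and -0.90, adjusted p = 0.0017), and the treatments did not differ beyond their spread (-0.10, 95% interval -0.38 to 0.19). Egln1, the main hydroxylase of HIF-1 alpha in most cells, was tightly grouped in Control at 66.1, 67.7 and 66.6 FPKM and at 61.4, 60.6 and 62.5 with free lenvatinib, which did not pass (-0.12, adjusted p = 0.263). With the nanocluster it was at 43.4, 52.5 and 46.9 FPKM, lower than in Control (log2 fold change -0.49 ± 0.071 SE, adjusted p = 0.00219) and than with free lenvatinib (log2 fold change -0.37 ± 0.071 SE, adjusted p = 0.00723). Vhl, the recognition subunit of the ligase that removes alpha subunits, was at 18 ± 0.5 FPKM in Control, 13.5 ± 0.225 with free lenvatinib and 13 ± 0.661 with the nanocluster, and it fell by a similar amount in each (-0.40, adjusted p = 0.00227, and -0.46, adjusted p = 0.00105; difference -0.054, 95% interval -0.18 to 0.074).

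Among genes of pH and glucose metabolism, Car9 was lower with the nanocluster than with free lenvatinib, and Pfkfb3 and Slc16a3 were higher. Car9, the carbonic anhydrase at the surface of hypoxic cells, was at 17.5, 17.9 and 17.4 FPKM in Control, 12.5, 11.2 and 13.2 with free lenvatinib and 7.96, 7.56 and 8.33 with the nanocluster. The 3 groups were far apart relative to their spread. Car9 fell in the free lenvatinib group (log2 fold change -0.50 ± 0.071 SE, adjusted p = 0.00231) and fell further in the nanocluster group (log2 fold change -1.10 ± 0.071 SE, adjusted p = 6.59e-05), with a difference between them of -0.60 ± 0.071 (adjusted p = 0.000703). Pfkfb3, which makes the sugar phosphate that speeds glycolysis, went the other way between the treatments. It was at 5.16, 7.06 and 5.94 FPKM in Control, 2.3, 3.74 and 3.05 with free lenvatinib and 7.21, 7.44 and 7.39 with the nanocluster. It fell with free lenvatinib (log2 fold change -0.90 ± 0.16 SE, adjusted p = 0.00575), did not pass against Control in the nanocluster group (0.27, adjusted p = 0.212), and was higher there than with free lenvatinib (log2 fold change 1.17 ± 0.16 SE, adjusted p = 0.00135).

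Slc16a3, the lactate exporter MCT4, was at 3.88, 8.6 and 6.63 FPKM in Control, 2.54, 5.94 and 3.95 with free lenvatinib and 8.19, 10.2 and 8.72 with the nanocluster. It varied within groups, and Control overlapped both treated groups (-0.57, adjusted p = 0.233, and 0.53, adjusted p = 0.223). Between the treatments it was higher with the nanocluster (log2 fold change 1.10 ± 0.32 SE, adjusted p = 0.036), but not without any 1 of nanocluster replicates 1, 2 and 3 (adjusted p = 0.0729, 0.0867 and 0.0912), free lenvatinib replicates 1 and 3 (0.103 and 0.094) or Control replicate 3 (0.0575). Pfkfb4, a relative of Pfkfb3, had the same order of libraries within the free lenvatinib group, at 0.954, 2.14 and 1.24 FPKM, and did not pass in any comparison of the 9 libraries (between the treatments 0.75, adjusted p = 0.0849). It passed there without free lenvatinib replicate 2 (adjusted p = 0.0479) or Control replicate 1 (0.0475). Pdk1, the kinase that keeps pyruvate out of mitochondria, was at 15 ± 1.16 FPKM in Control, 14.1 ± 0.197 with free lenvatinib and 11.9 ± 1.58 with the nanocluster. Its fall in the nanocluster group was slight (-0.32, adjusted p = 0.0349) and did not pass without nanocluster replicate 1 or 3 (adjusted p = 0.09 and 0.106), Control replicate 2 or 3 (0.0775 and 0.0923) or free lenvatinib replicate 1, 2 or 3 (0.0538, 0.054 and 0.0588). Rescaling without mitochondrial genes also ended it (0.0783). Pdk1 was lower than with free lenvatinib without nanocluster replicate 2 (adjusted p = 0.023) and with median-of-ratios or upper quartile scaling (0.0373 and 0.047). Car12, a second surface carbonic anhydrase, was at 0.525 ± 0.0467 FPKM in Control, 0.329 ± 0.0328 with free lenvatinib and 0.371 ± 0.127 with the nanocluster, and was not tested.

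**Figure D2:**
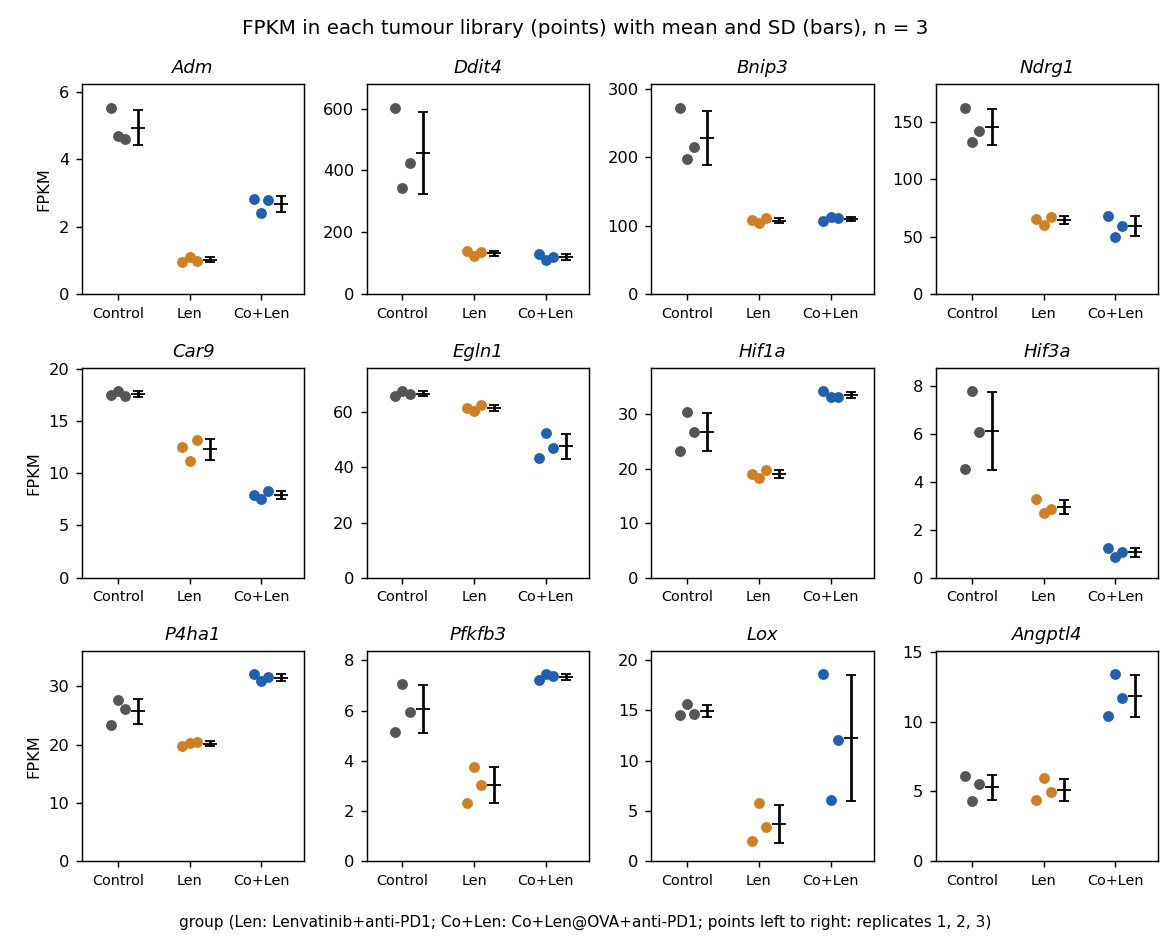
Each panel plots the FPKM of 1 gene in the 9 tumour libraries (points, replicates 1 to 3 from left to right) with the mean and SD of each group (bars, n = 3), on axes that start at 0. Ddit4, Bnip3 and Ndrg1 sit at like levels in both treated groups, Adm, Car9 and Hif3a form 3 separate levels, and Hif1a, P4ha1 and Angptl4 are highest with the nanocluster.

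Of the mitochondrial genes Bnip3, Bnip3l and Higd1a fell under both treatments and Fam162a did not pass. Bnip3, which tags mitochondria for removal, was among the most abundant of the module at 273, 197 and 215 FPKM in Control. It was at 108, 104 and 111 with free lenvatinib and 107, 113 and 112 with the nanocluster. The treated groups had means at 0.472 and 0.485 of the Control mean and overlapped each other (log2 fold change -1.07 ± 0.11 SE, adjusted p = 0.000638, and log2 fold change -1.03 ± 0.11 SE, adjusted p = 0.000615; difference 0.038, 95% interval -0.22 to 0.29). Bnip3l, its relative NIX, which also clears mitochondria from maturing red cells, was at 41.7, 40.9 and 41.8 FPKM in Control, 21.4, 24.9 and 24.2 with free lenvatinib and 29.4, 29.9 and 32.4 with the nanocluster. It fell in both groups (-0.81, adjusted p = 0.000293, and -0.43, adjusted p = 0.00326) and was higher with the nanocluster than with free lenvatinib (log2 fold change 0.37 ± 0.07 SE, adjusted p = 0.00619). The 5 erythroid markers tested, Alas2 and globins, were all higher in that comparison, with sums of 2063 to 2996 FPKM with the nanocluster and 177 to 433 with free lenvatinib, and none of the 9 found was at 0 throughout a group. Their part in the Bnip3l difference was not tested. Higd1a, a small mitochondrial protein of the respiratory chain, fell in both groups (-0.82, adjusted p = 0.00696, and -0.64, adjusted p = 0.0147), from 15.7, 9.57 and 11.5 FPKM in Control to 6.42, 6.68 and 6.58 with free lenvatinib and 7.32, 7.3 and 7.91 with the nanocluster. Fam162a, a mitochondrial protein linked to cell death under hypoxia, was at 42.8, 43.2 and 46.7 FPKM in Control, 45.6, 40.5 and 48.5 with free lenvatinib and 41.8, 63.4 and 55.5 with the nanocluster. It did not pass in any comparison of the 9 libraries, and without nanocluster replicate 1 it was higher in the nanocluster group than in Control (adjusted p = 0.0203) and than with free lenvatinib (0.0275).

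Among growth regulators Ddit4, Ndrg1, Bhlhe40, Kdm3a and Mxi1 fell in both treated groups. Ddit4, which encodes REDD1, an inhibitor of the growth kinase mTORC1 induced by hypoxia and by other stresses, was the most abundant gene of the module. It was at 603, 343 and 423 FPKM in Control, 138, 123 and 136 with free lenvatinib and 129.9, 111 and 122 with the nanocluster. Control library 1 was highest, and the groups did not overlap, with the lowest Control value at 343 FPKM and the highest treated one at 138. Ddit4 fell with free lenvatinib (log2 fold change -1.74 ± 0.18 SE, adjusted p = 0.000666) and with the nanocluster (log2 fold change -1.88 ± 0.18 SE, adjusted p = 0.00041), and the treatments did not differ beyond their spread (-0.13, 95% interval -0.55 to 0.29). Ndrg1, a differentiation-linked protein induced in hypoxia, was at 162, 132 and 142 FPKM in Control, 65.5, 60.6 and 67 with free lenvatinib and 68.1, 50.2 and 59.7 with the nanocluster. It fell to 0.442 and 0.407 of the Control mean (log2 fold change -1.17 ± 0.12 SE, adjusted p = 0.000617, and log2 fold change -1.29 ± 0.12 SE, adjusted p = 0.000339; difference -0.13, 95% interval -0.40 to 0.15).

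Bhlhe40, a transcriptional repressor that also takes part in the circadian clock, was at 196, 92.1 and 127 FPKM in Control, 67.5, 65.8 and 69.1 with free lenvatinib and 76.2, 70.1 and 73.1 with the nanocluster. The Control group was wide, with library 1 highest, and no treated library overlapped it (log2 fold change -0.96 ± 0.23 SE, adjusted p = 0.0193, and log2 fold change -0.85 ± 0.23 SE, adjusted p = 0.0245). Without Control replicate 1 it still fell in both groups (-0.68, adjusted p = 0.00622, and -0.56, adjusted p = 0.014). With free lenvatinib it did not pass without replicate 1, 2 or 3 of that group or Control replicate 3 (adjusted p = 0.0519, 0.0584, 0.0605 and 0.0554). With the nanocluster it did not pass without replicate 1, 2 or 3 of that group or Control replicate 3 (0.0538, 0.0618, 0.0716 and 0.0587). Kdm3a, a histone demethylase, fell from 16.5 ± 1.11 to 11.7 ± 0.471 and 11.8 ± 0.403 FPKM (-0.47, adjusted p = 0.00227, and -0.47, adjusted p = 0.00192). Mxi1, an antagonist of MYC, fell slightly in both, from 12.2, 12.8 and 12.8 FPKM in Control to 9.8, 9.96 and 10.4 with free lenvatinib and 11, 9.78 and 10.4 with the nanocluster (-0.31, adjusted p = 0.00889, and -0.27, adjusted p = 0.0127), the latter not without nanocluster replicate 3 or after rescaling without mitochondrial genes (adjusted p = 0.0504 and 0.0621). Ccng2, which encodes the growth-restraining cyclin G2, was at 9.4, 8.4 and 9.02 FPKM in Control, 6.24, 6.17 and 6.56 with free lenvatinib and 9.99, 7.73 and 8.53 with the nanocluster. It fell with free lenvatinib (-0.47, adjusted p = 0.0101), did not pass against Control with the nanocluster (-0.035, 95% interval -0.25 to 0.18), and differed between the treatments (0.43, adjusted p = 0.012). Ankrd37, an ankyrin repeat protein induced by HIF-1, was at 11.8 ± 2.75 FPKM in Control, 11 ± 1.21 with free lenvatinib and 8.47 ± 1.31 with the nanocluster and did not pass, except against Control in the nanocluster group without Control replicate 2 (adjusted p = 0.0256).

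**Figure D3:**
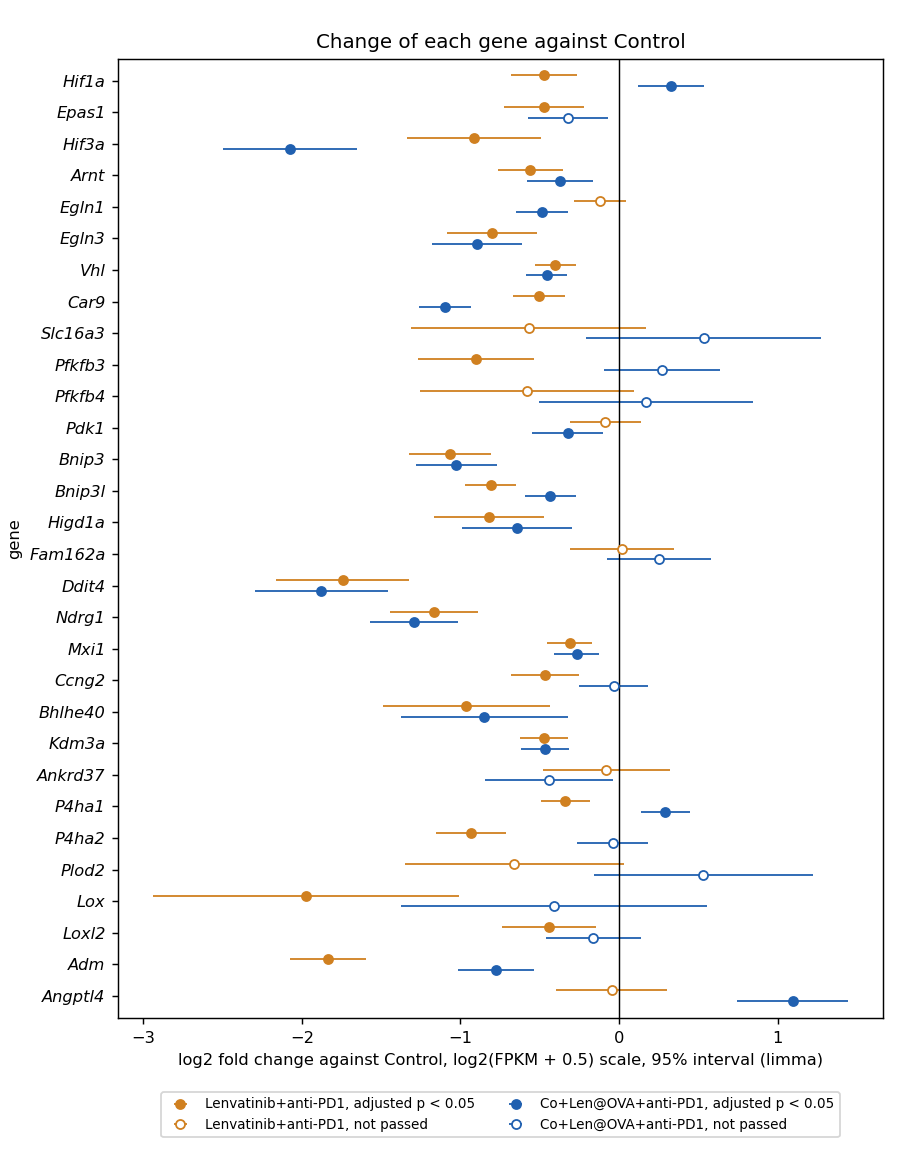
Points give the log2 fold change against Control of the 30 genes tested with free lenvatinib (orange) and with the nanocluster (blue), with 95% intervals from limma, and filled points passed an adjusted p of 0.05. For Ddit4, Ndrg1, Bnip3 and Vhl the intervals of both treatments overlap well below 0, whereas for Hif1a and P4ha1 they lie on opposite sides of 0.

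Of 5 genes of collagen modification 4 fell with free lenvatinib, and 4 were higher with the nanocluster than with free lenvatinib. Over all genes 9.87% fell in the first comparison and 17.3% were higher in the second. P4ha1, the catalytic subunit of collagen prolyl hydroxylase, was at 23.4, 27.7 and 26.1 FPKM in Control, 19.8, 20.2 and 20.5 with free lenvatinib and 32, 30.9 and 31.6 with the nanocluster. The groups did not overlap, and they stood in the same order as for Hif1a. P4ha1 fell with free lenvatinib (log2 fold change -0.34 ± 0.067 SE, adjusted p = 0.0091), rose with the nanocluster (log2 fold change 0.29 ± 0.067 SE, adjusted p = 0.0133), and the treatments differed (log2 fold change 0.63 ± 0.067 SE, adjusted p = 0.000393). The rise did not pass without nanocluster replicate 3 (adjusted p = 0.051). P4ha2, a second form of that subunit, was at 8.72, 9.37 and 9.2 FPKM in Control, 4.32, 4.51 and 4.75 with free lenvatinib and 7.76, 10.2 and 8.69 with the nanocluster. It fell to 0.498 of the Control mean with free lenvatinib (log2 fold change -0.93 ± 0.10 SE, adjusted p = 0.000617), overlapped Control with the nanocluster (-0.042, 95% interval -0.26 to 0.18), and differed between the treatments (log2 fold change 0.89 ± 0.10 SE, adjusted p = 0.00043).

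Lox, the enzyme that cross-links collagen, varied widely among the treated libraries. It was at 14.5, 15.7 and 14.7 FPKM in Control, 2.01, 5.78 and 3.37 with free lenvatinib and 18.6, 6.05 and 12.1 with the nanocluster. All free lenvatinib libraries were below Control (log2 fold change -1.97 ± 0.42 SE, adjusted p = 0.0128), and the nanocluster libraries overlapped Control (-0.41, 95% interval -1.37 to 0.56). The difference between the treatments (log2 fold change 1.56 ± 0.42 SE, adjusted p = 0.0267) did not pass without nanocluster replicate 1 or 3 (adjusted p = 0.0768 and 0.0842) or free lenvatinib replicate 1 or 3 (0.0814 and 0.0781). The summed FPKM of 10 fibroblast markers followed the same order of libraries in each treated group, at 263, 599 and 403 with free lenvatinib and 651, 439 and 556 with the nanocluster, against 305, 534 and 456 in Control. Endothelial sums also had this order, and with the third library mostly in the middle a shared order is no evidence of a link. Free lenvatinib library 2 had a higher fibroblast sum than any Control library. Its median over these markers was 21.8 FPKM, against 11.8, 31.3 and 23.4 in Control. The part of fibroblasts in the Lox difference was not tested. None of the fibroblast markers was at 0 throughout a group, and of the 9 tested 2 were higher and 1 lower with the nanocluster than with free lenvatinib. Of all genes 17.3% were higher and 12.0% lower there, so these counts are near those of genes in general. In libraries 1 and 2 alone none of the fibroblast markers passed in that comparison. Plod2, which hydroxylates collagen lysines, had the same order of libraries as Lox in both treated groups, at 0.609, 1.83 and 0.958 FPKM with free lenvatinib and 4.24, 2.26 and 2.95 with the nanocluster, against 1.56, 2.42 and 1.98 in Control. It was higher with the nanocluster than with free lenvatinib (log2 fold change 1.19 ± 0.30 SE, adjusted p = 0.0208), but not without nanocluster replicate 1 or 3 (adjusted p = 0.067 and 0.0628) or free lenvatinib replicate 1 or 3 (0.063 and 0.0712). Loxl2, a relative of Lox, was at 29.2 ± 5.64 FPKM in Control, 21.1 ± 0.715 with free lenvatinib and 25.8 ± 1.67 with the nanocluster. It fell narrowly with free lenvatinib (-0.44, adjusted p = 0.0415), and without any 1 library other than Control replicate 1 the adjusted p was 0.0511 to 0.123. After rescaling without mitochondrial genes it was 0.0823. Without Control replicate 1 it was also lower with the nanocluster than in Control (adjusted p = 0.019) and higher than with free lenvatinib (0.0147).

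Among secreted factors, Adm had the lowest ratio of means to Control of the 32 genes with free lenvatinib, and Angptl4 the highest with the nanocluster. Adm, which encodes the vessel-widening peptide adrenomedullin, was at 5.54, 4.69 and 4.61 FPKM in Control, 0.962, 1.12 and 0.998 with free lenvatinib and 2.83, 2.41 and 2.8 with the nanocluster. The 3 groups did not overlap, and the nanocluster group lay between the others. With free lenvatinib the mean was 0.207 of Control (log2 fold change -1.83 ± 0.10 SE, adjusted p = 4.79e-05), with the nanocluster 0.542 (log2 fold change -0.78 ± 0.10 SE, adjusted p = 0.00154), and the nanocluster group was higher than the free lenvatinib group (log2 fold change 1.06 ± 0.10 SE, adjusted p = 0.000278). Angptl4, an inhibitor of lipoprotein lipase that responds to hypoxia and to PPAR receptors, was at 6.08, 4.3 and 5.51 FPKM in Control, 4.4, 5.94 and 4.97 with free lenvatinib and 10.4, 13.4 and 11.7 with the nanocluster. All nanocluster libraries were above all others, at 2.23 times the Control mean (log2 fold change 1.09 ± 0.15 SE, adjusted p = 0.00177; against free lenvatinib log2 fold change 1.14 ± 0.15 SE, adjusted p = 0.00127), while with free lenvatinib the change was -0.046, 95% interval -0.40 to 0.30. Angptl4 is also made in fat, and 10 adipocyte markers summed to 246, 47.3 and 146 FPKM in the nanocluster libraries, 49.9, 609.7 and 275 with free lenvatinib and 10.3, 14.4 and 20.7 in Control, with none at 0 throughout a group. Angptl4 stood in the same order of libraries as these sums with free lenvatinib and in the reverse order with the nanocluster. With the third library mostly in the middle, a shared or reversed order is no evidence of a link or of its absence. The part of fat cells in the rise of Angptl4 was not tested. Stc2, the hormone stanniocalcin 2, was at 0.239 ± 0.0591 FPKM in Control, 0.206 ± 0.117 with free lenvatinib and 0.18 ± 0.0244 with the nanocluster, and was not tested.

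**Figure D4:**
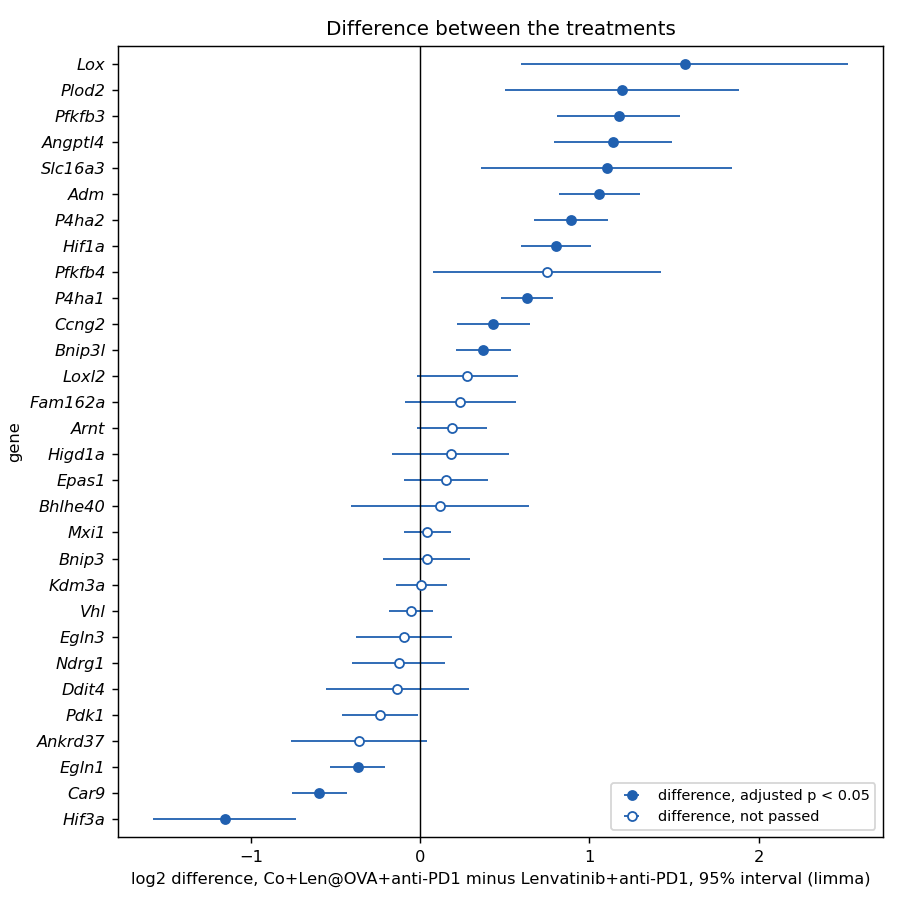
Points give the log2 difference between the nanocluster and free lenvatinib groups for the 30 genes tested, ordered by size, with 95% intervals from limma, and filled points passed an adjusted p of 0.05. The 11 genes that passed on the right run from Bnip3l to Lox, the 3 on the left are Egln1, Car9 and Hif3a, and Ddit4, Ndrg1, Bnip3, Kdm3a and Vhl lie around 0.

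Across the module, levels in Control spanned from 0.239 FPKM for Stc2 to 456 for Ddit4. FPKM are scaled by transcript length, so levels of different genes can be compared. Ddit4 was followed by Bnip3, Ndrg1, Bhlhe40 and Egln3, at 228 ± 39.6, 146 ± 15.4, 139 ± 53 and 109.8 ± 13.5 FPKM, and Bhlhe40 overlapped its neighbours Ndrg1 and Egln3. Each of these 5 fell in both treated groups. At the lower end, Car12 and Stc2 were under the filter, and Plod2, Pfkfb4, Adm and Angptl4 were between 1.99 and 5.3 FPKM. The alpha subunits Hif1a and Epas1 were at nearly the same level in Control, 26.7 ± 3.53 and 27.4 ± 2.39 FPKM, and at 33.5 ± 0.615 and 21.9 ± 2.73 with the nanocluster.

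Of 10 regulators outside the module (Hif1an, Egln2, Arnt2, Cul2, Elob, Eloc, Rbx1, Cited2, Crebbp and Ep300), 2 fell and 1 rose with free lenvatinib, 2 fell with the nanocluster, and between the treatments 0 passed in limma, with 2 lower and 0 higher at an unadjusted p under 0.05, where Cited2 was nearest (-0.31, adjusted p = 0.0562). Over all genes 23.7%, 33.6% and 29.4% were called in these comparisons, so the regulators as a list were not called more often than genes in general with the nanocluster or between the treatments, and with free lenvatinib their share was near that of all genes. Cited2, a HIF-induced inhibitor that competes with HIF-1 alpha for its co-activators, was at 215, 184 and 195 FPKM in Control, 84.4, 77.6 and 83.3 with free lenvatinib and 73.8, 56.5 and 67.9 with the nanocluster. It fell in both groups without overlap (log2 fold change -1.27 ± 0.11 SE, adjusted p = 0.00026, and log2 fold change -1.58 ± 0.11 SE, adjusted p = 7.76e-05). Egln2, the third prolyl hydroxylase, fell slightly (-0.32, adjusted p = 0.0108, and -0.22, adjusted p = 0.0369), and Eloc, a subunit of the VHL ligase, rose with free lenvatinib (0.27, adjusted p = 0.0482). In libraries 1 and 2 alone 1 regulator fell with the nanocluster, and none passed with free lenvatinib or between the treatments.

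Further HIF targets were a list of 36 glycolytic, vascular, iron and other genes outside the module. With free lenvatinib 18 fell and 1 rose (median log2 change -0.37), with the nanocluster 13 fell and 4 rose (median -0.22), and between the treatments 11 were higher and 3 lower with the nanocluster (median 0.15). Of all genes, 9.87% fell and 13.8% rose with free lenvatinib, 12.7% fell and 20.9% rose with the nanocluster, and 17.3% were higher and 12.0% lower between the treatments. The matrix growth factor Ccn2 and the placental growth factor Pgf were higher with the nanocluster than with free lenvatinib. Ccn2 was at 137 ± 15.2 FPKM in Control, 62.4 ± 2.51 with free lenvatinib and 154 ± 27 with the nanocluster (between the treatments 1.28, adjusted p = 0.000347), and Pgf at 1.53 ± 0.169, 0.457 ± 0.121 and 2.53 ± 0.439 (1.66, adjusted p = 0.000191). Slc2a1, the glucose transporter GLUT1, and Ero1l (also called Ero1a), an oxidase of protein folding, fell in both groups. Slc2a1 was at 113 ± 18.6 FPKM in Control, 59.6 ± 4.28 with free lenvatinib and 70.9 ± 2.72 with the nanocluster (-0.91, adjusted p = 0.00149, and -0.66, adjusted p = 0.00437), and Ero1l at 40.1 ± 1.41, 23.6 ± 0.787 and 25.6 ± 1.69 (-0.75, adjusted p = 0.000274, and -0.64, adjusted p = 0.000441). Ppp1r3c, a glycogen-targeting subunit, rose with free lenvatinib (1.29, adjusted p = 0.012). In the nanocluster group the rises included Aldoc and Nampt (1.23, adjusted p = 0.0356, and 0.69, adjusted p = 0.0113), and Aldoc varied there, at 20.8, 5.91 and 13.9 FPKM. In libraries 1 and 2 alone 0 of these targets rose or fell against Control in either treated group. Between the treatments 1 was higher there and 0 lower, where 0.443% of all genes were higher and 1.93% lower.

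Markers of other cell types also differed between the groups. Hepatocyte markers summed to 662 to 1872 FPKM in Control, 1847 to 1964 with free lenvatinib and 123 to 135 with the nanocluster, where 10 of 10 fell against Control and 10 of 10 were lower than with free lenvatinib. With free lenvatinib 2 of 10, Mup20 and Fabp1, rose against Control, also in libraries 1 and 2 alone, at 6.72 and 11.5 times its mean. Macrophage markers summed to 311 to 1365, 470.1 to 563 and 1845 to 2169 FPKM, with 1 of 10 higher with the nanocluster than in Control and 5 higher than with free lenvatinib. Neutrophil markers fell with free lenvatinib in 9 of 10 cases, to sums of 27.7 to 39.6 FPKM from 131 to 151, and were at 95.4 to 187 with the nanocluster. Endothelial markers summed to 10.5, 44.4 and 34.3 FPKM in the Control libraries, 20.1, 37.9 and 27.3 with free lenvatinib and 74.9, 40.3 and 57.7 with the nanocluster, and of the 8 tested 1 rose with the nanocluster. Striated muscle markers summed to 33.8, 4144 and 1646 FPKM with free lenvatinib and at most 49.1 in the other groups, and 6 of 10 rose with free lenvatinib. T cell markers summed to 19.6 to 87.4 FPKM in Control, 66.3 to 71.4 with free lenvatinib and 168 to 242 with the nanocluster, and 8 of 10 rose with the nanocluster. In libraries 1 and 2 alone, 3 hepatocyte markers fell with the nanocluster and 7 were lower than with free lenvatinib. None of the macrophage, neutrophil, endothelial, muscle or T cell changes counted above passed there. With 9 libraries, 9.87% of all genes fell and 13.8% rose with free lenvatinib, and 12.7% fell and 20.9% rose with the nanocluster. Between the treatments 17.3% were higher and 12.0% lower. No marker of these lists was at 0 throughout a group, and the part of these cells in the changes of the hypoxia genes was not tested. Control library 1, low in macrophage and endothelial markers, had the highest hepatocyte sum in Control, at 1872 FPKM against 662 and 1118. It was the highest control for Ddit4, Bnip3, Bhlhe40, Egln3, Higd1a, Ndrg1, Adm, Kdm3a, Ccng2, Ankrd37 and Angptl4. Of the 30 genes tested it was in the middle for 2, Bnip3l and Car9, and the lowest control for the others. Without it, 22 hypoxia genes fell with free lenvatinib, as before, but 2679 of all 15353 genes tested fell, against 1516 with it. With the nanocluster 18 hypoxia genes fell, where 1945 of all genes fell, against 1946 with it.

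**Figure D5:**
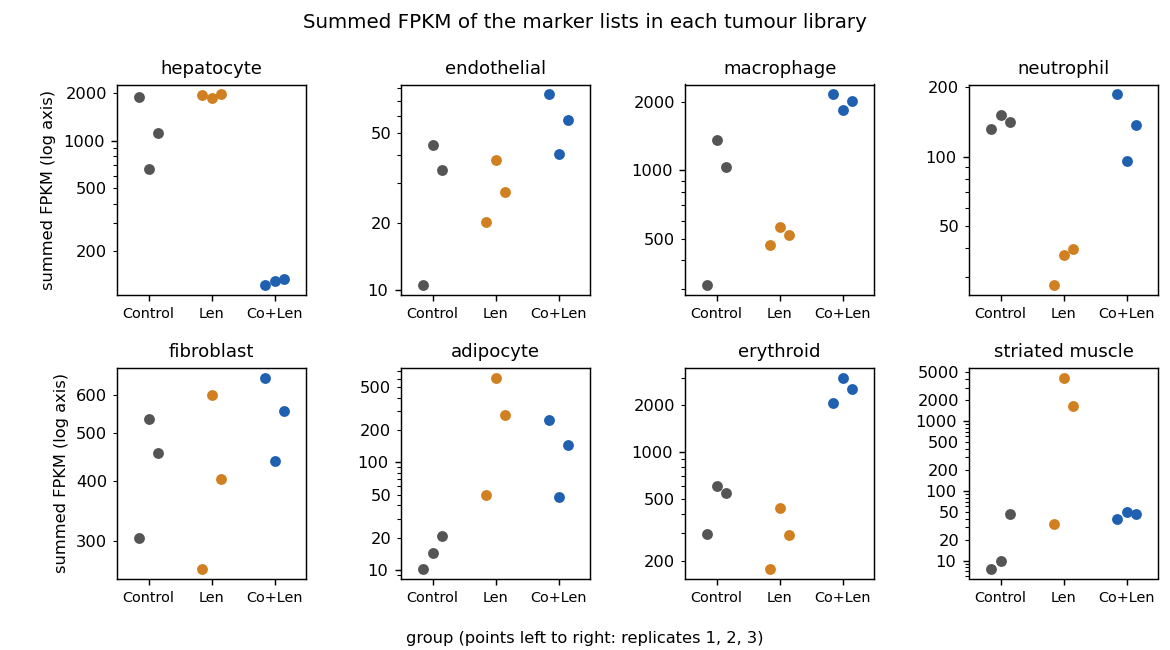
Each panel plots the summed FPKM (log axis) of a marker list in the 9 tumour libraries, by group, with replicates 1 to 3 from left to right. Hepatocyte sums are lowest in the nanocluster libraries (123 to 135 FPKM), neutrophil sums lowest with free lenvatinib (27.7 to 39.6 FPKM), and muscle sums high in free lenvatinib libraries 2 and 3.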

How the data were processed

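Per the labels' protocols, poly(A) RNA of 9 tumours was sequenced from libraries that mark the strand. The submitters' processing notes list fastp, StringTie and edgeR, with no version. No source used here gives the aligner, build or annotation. The authors deposited FPKM, per the file headers, in a table titled raw counts. Low values of genes with 1 transcript lay within 0.05 of a whole fragment in 20.9% to 26.1% of cases, so counts could not be rebuilt and depth is unknown.

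limma 3.58.1 in R 4.3.3 (trend, robust) was fitted to log2(FPKM + 0.5) of all 9 libraries, 3 per group, with Benjamini-Hochberg adjustment over the 15353 genes that passed the filter. This scale understates changes of low genes. "Rose" and "fell" mean an adjusted p under 0.05, values in parentheses before a p are log2 changes, and ± after FPKM is the SD over 3 libraries. Members and lists were chosen with earlier results of these data known. All members are named, and of both other HIF lists at most 6 called genes per comparison, by size of change, with 1 gene not reported here. Aldoa has 2 rows, of which the higher was used. The labels do not say that each tumour came from its own mouse, so p-values may measure technical spread. Alternatives were other pseudocounts, filters, scalings, variance models, fits of 2 groups, a replicate block and leaving out libraries.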

Additional observations from a re-analysis of the deposited data

How the results depend on the processing

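Of the 30 genes tested in 3 comparisons no called change reversed its direction under any alternative run. With libraries 1 and 2 only (3 residual degrees of freedom), the genes called were 1 lower with free lenvatinib (22 with 9 libraries), 1 lower and 0 higher with the nanocluster (16 and 3), and 0 higher and 0 lower between the treatments (11 and 3), against 53, 80 and 365 of all genes (3636, 5155 and 4507). Median-of-ratios scaling left 1 hypoxia gene higher with the nanocluster. The fit of the 2 groups alone called 3279 genes for the nanocluster against Control. Leaving out 1 library gave 19 to 22 lower and 0 to 0 higher with free lenvatinib, 13 to 18 lower and 1 to 3 higher with the nanocluster, and 8 to 13 higher and 3 to 4 lower between the treatments. Over all genes it gave 1957 to 5053, 2849 to 5770 and 2381 to 6592 calls. These counts moved by over 1.5 times without free lenvatinib replicate 2 or 3 or Control replicate 3 in the first comparison (2410, 1957 and 2138), nanocluster replicate 3 in the second (2849), and nanocluster replicate 3 or free lenvatinib replicate 1 or 3 in the third (2381, 2900 and 2525). The replicate block gave 22 lower with free lenvatinib, 16 lower and 2 higher with the nanocluster, and 9 higher and 3 lower between the treatments, where Lox and Plod2 (adjusted p = 0.0674 and 0.0507) did not pass. It also ended the rise of Hif1a (0.055). Same-numbered libraries did not deviate together (correlations -0.25 to 0.079, against -0.19 to 0.24 for other pairs). With the third library mostly in the middle, libraries 1 and 2 deviate in opposite directions. These correlations therefore cannot decide whether the numbers pair libraries. DESeq2 was not run, since it needs counts. Pseudocounts of 0.1 and 1 changed none of the 90 calls. Fits of 2 groups alone ended 5 called changes and added 2, and having no filter on low values ended 5. The cause of these changes was not tested. Where libraries were left out, their smaller number and the loss of those libraries cannot be told apart.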
